A study of Mus musculus with 165 samples.

Results

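The RNA of 6 genes whose surface proteins are commonly used to recognise hematopoietic stem and progenitor cells is described here, across a time series of macrophage and neutrophil differentiation of PUER cells. The genes were chosen by symbol, *Kit*, *Flt3*, *Cd34*, *Ly6a*, *Cd27* and *Cd44*, and are 6 of the 36255 gene rows in the table of normalized counts. The table holds libraries of polyA RNA from 56 combinations of cytokine and time point, of which 53 have 3 libraries and GCSF-OHT 96h, 112h and 152h have 2. PUER is a cell line of mouse bone marrow-derived progenitors of genotype Spi1-/-, shared by all libraries, whose only PU.1 is an inducible fusion with part of the estrogen receptor, which 4-hydroxy-tamoxifen (OHT) activates. Undifferentiated cells grew in 5 ng/ml IL3 without OHT (IL3 0h, 3 libraries). For macrophage conditions 200 nM OHT was added in IL3 (IL3-OHT, 81 libraries at 27 time points from 1h to 168h). For neutrophil conditions IL3 was replaced by 10 ng/ml GCSF for 48 h (GCSF 0h, 3 libraries) and 100 nM OHT was then added (GCSF-OHT, 78 libraries at the same 27 time points). The OHT dose and the cytokine changed together and cannot be told apart. No library without OHT was sampled after 0h, so OHT and time in culture cannot be told apart either. Cells of all time points later than 24h were detached with trypsin, and part of the medium was replaced with fresh OHT at 40h, 88h and 136h. The whole series is 1 line, each time point had its own culture plate, and p-values therefore measure the spread between cultures harvested from the same plate, while plate and time point cannot be told apart.

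*Kit* and *Flt3* encode class III receptor tyrosine kinases, whose ligands, stem cell factor (*Kitl*) and Flt3 ligand (*Flt3l*), pair the receptors and start signalling through PI3 kinase, SRC-family kinases and STAT5. Kit marks stem cells and most myeloid progenitors, as well as mast cells, and Flt3 marks multipotent and lymphoid-primed progenitors. Cd34 is a sialomucin of progenitor and endothelial cells, Ly6a (Sca-1) is a small GPI-anchored protein of the Ly6 family used in sorting mouse stem cells, Cd27 is a receptor of the tumor necrosis factor receptor family whose ligand is Cd70, and Cd44 is a hyaluronan receptor that progenitors and mature leukocytes both carry.

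The libraries held 14600246 to 33147945 reads on genes, with a median of 21960878, so that 3 reads, the floor used here for calling a gene detected, correspond to a normalized count of 1.96 to 5.51 depending on the library. *Spi1*, which encodes PU.1, had a normalized count of 4482 to 13387 in the libraries, and at the level of a gene sum RNA of the fusion and of the locus cannot be told apart. *Ptprc* (Cd45), carried by nearly all blood cells, averaged 3.23 in undifferentiated cells, 0.311 after the pre-treatment, 161 at 168h of IL3-OHT and 616 at 168h of GCSF-OHT. Of the labelled progenitor identity, *Kit* was detected in every library and *Cd34* was over 3 reads in 3. Excluded by the authors as unlike their neighbours, the 6 macrophage-condition libraries of 96h and 144h were not tested here but are shown where named. The 120h libraries carry a different library-name prefix from the rest, and leaving them out, with the genes tested kept, changed no call on a member with the pre-treatment, at 168h, between the cytokines in the mean or over the windows and courses. At single time points it ended the call of *Cd27* between the cytokines at 152h (log2 -0.82, adjusted p = 0.049 with and 0.052 without the 120h libraries) and added a called step of *Flt3* at 56h in IL3 (log2 -1.55, adjusted p = 0.053 with and 0.047 without). With the 120h libraries the only called step of *Flt3* was a fall at 120h in IL3, which could not be tested without them.

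The members spanned more than 3 orders of magnitude in level. In undifferentiated cells, per kilobase of annotated exon, *Cd44* had a normalized count of 909 and *Kit* of 455, against 14.04 for *Cd27*, 13.9 for *Ly6a*, 5.30 for *Flt3* and 0.375 for *Cd34*. At GCSF-OHT 168h the order on the same scale was *Cd44* (1148), *Kit* (253), *Ly6a* (45.2), *Cd27* (16.4), *Flt3* (0.656) and *Cd34* (0.0391). All 6 passed the filter on low values, which asked for a normalized count of 5 in at least 1 library, *Cd34* through a single library of IL3-OHT 120h, without which it would not be tested. Over all libraries the lowest, median and highest normalized counts were 3032, 4549 and 9451 for *Cd44* and 1042, 2371 and 5936 for *Kit*. For *Ly6a* they were 8.18, 38.5 and 199, for *Cd27* 8.04, 24.5 and 71.3, and for *Flt3* 0, 7.16 and 55.2.

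*Kit* lies on chr5:75574916-75656722 (GRCm38, GENCODE, plus strand) and none of the 31-base words of its transcripts occurs in another gene, so that its reads are not shared. *Kit* has 2 RefSeq start sites (GRCm38.p6), 75574987 and 75574991. The 250 bases upstream of the first (chr5:75574737-75574986, plus strand) and those of *Cd44* (chr2:102901666-102901915, minus strand) are shown. These are the members whose levels moved furthest above the counting error. The GENCODE start of *Kit* lies inside its printed stretch. Capitals mark GAGGAA on either strand, an ETS core with the flank favoured by PU.1.
*Kit* upstream: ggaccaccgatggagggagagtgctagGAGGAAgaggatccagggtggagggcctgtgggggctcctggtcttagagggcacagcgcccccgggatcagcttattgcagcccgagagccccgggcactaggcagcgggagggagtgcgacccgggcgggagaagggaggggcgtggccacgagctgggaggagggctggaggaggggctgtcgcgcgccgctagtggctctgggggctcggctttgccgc
*Cd44* upstream: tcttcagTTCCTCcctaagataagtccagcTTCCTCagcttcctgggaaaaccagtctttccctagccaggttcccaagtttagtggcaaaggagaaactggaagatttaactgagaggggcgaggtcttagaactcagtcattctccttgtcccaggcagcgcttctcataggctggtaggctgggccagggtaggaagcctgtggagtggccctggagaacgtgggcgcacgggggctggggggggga
GAGGAA begins 223 bases before the first *Kit* start, and 227 before the second, on the plus strand of the gene. In *Cd44* GAGGAA is read on the opposite strand at 243 and 220 bases before the start. These lie on either side of a match at 233 to AGATAA, the motif of the erythroid and stem cell factors Gata1 and Gata2. The RefSeq table held a start site for 5 of the 6 members. The windows of *Flt3*, *Cd34* and *Cd27* hold no GAGGAA, while *Flt3* holds CACGTG that begins 3 bases past the start site. Of 27025 mouse promoter windows of equal length, which run 50 bases past the start, 28.3% hold GAGGAA on either strand, 11.4% AGATAA and 7.24% CACGTG. No window of the 5 held TGTGGT (RUNX), TTCNNNGAA (STAT), TGANTCA (AP-1) or TTGCGCAA (C/EBP), which 16.9%, 8.47%, 7.93% and 0.185% of all windows hold.

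*Kit* was lower at the end of both courses than at their start, and by more in IL3. Undifferentiated cells had normalized counts of 4186, 3995 and 3978, GCSF 0h libraries 3744, 3625 and 3647, IL3-OHT 168h libraries 1222, 1370 and 1352 and GCSF-OHT 168h libraries 2275, 2252 and 2249. No 2 of these 4 conditions overlapped, and the order from high to low was undifferentiated, GCSF 0h, GCSF-OHT 168h and IL3-OHT 168h. With OHT in IL3 *Kit* fell by 1.63 ± 0.06 on the log2 scale (SE, limma on log2(normalized count + 1), Benjamini-Hochberg adjusted p = 2.0e-52 over 17414 genes), and in GCSF it fell by 0.70 ± 0.06 (adjusted p = 2.7e-22). The GCSF pre-treatment alone gave a difference of -0.14 ± 0.06 (adjusted p = 0.021), under the log2 fold threshold of 0.58 that a call required beside an adjusted p under 0.05. In bulk RNA, fewer cells that express a gene and less of its RNA per cell cannot be told apart.

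The course of *Kit* in IL3 was not monotonic. It stood at 3758 ± 27.6 (SD, n = 3) at 1h and 3706 ± 43.3 at 2h, and then at 5467 ± 142.1 at 3h and 5747 ± 236 at 4h, its highest mean. All 6 libraries of 3h and 4h, from 5350 upward, lay above all undifferentiated libraries, although the difference from the start, 0.43 at 3h and 0.50 at 4h on the log2 scale, stayed under the fold threshold. *Kit* then fell by 0.63 ± 0.06 between 4h and 8h, to 3702 ± 164.7, and by 0.73 ± 0.06 between 8h and 12h, to 2235 ± 181.3 (adjusted p = 6.4e-19 and 4.4e-22). These were the only 2 called steps of *Kit* between consecutive time points in either cytokine. In this family 0.0976% to 15.97% of tested genes were called per step in IL3 and 0.0115% to 6.05% in GCSF. Without replicate 2 only 1 step was called over the 5 members other than *Cd34*, so at least 1 of these 2 was lost. Means of 2170 to 2419 followed from 16h to 32h, 1750 ± 3.88 at 48h, 1481 ± 83.7 at 88h and 1119 ± 66.8 at 152h, the lowest. Against the start *Kit* was called lower at 20 of 25 time points, that is at each one tested from 12h on, where the share of genes called in either direction ran from 4.42% to 33.8% over the 25 time points.

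In GCSF *Kit* declined without such a peak. Its highest mean, 4092 ± 79.1 at 1h, differed from GCSF 0h by 0.16 on the log2 scale, and the means of 2h to 20h lay between 3201 and 3811, that of 12h the lowest. It was 2814 ± 319 at 40h, 2495 ± 144.96 at 48h and 2431 ± 69.8 at 72h, the first called time point (log2 -0.59, adjusted p = 1.4e-17). From 80h on the means stayed between 2229 ± 109.2 at 144h and 2648 ± 106.4 at 120h. *Kit* was called lower at 11 of 27 GCSF time points, and the shares of genes called in either direction ran from 5.48% to 26.97% over them.

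**Figure D1:**
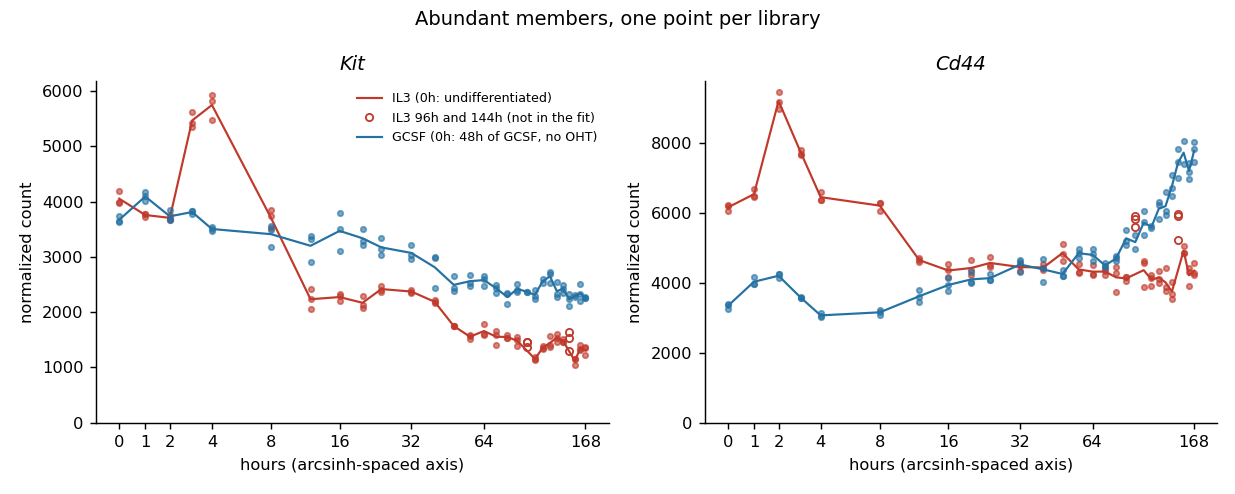
Normalized counts of *Kit* (left) and *Cd44* (right) against hours of OHT on an arcsinh-spaced axis, 1 point per library and lines through the means, with IL3 in red, GCSF in blue and the IL3 96h and 144h libraries as open circles outside the line. *Kit* in IL3 peaks at 5747 at 4h and ends at 1314, under the 2259 of GCSF, whereas *Cd44* starts higher in IL3 (6159 against 3345) and ends higher in GCSF (7779 against 4352).

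*Flt3*, on chr5:147330741-147400489 (minus strand), was low from the outset and fell furthest in IL3. The 3 undifferentiated libraries had normalized counts of 36.6, 29.7 and 31.9, from 27 to 29 reads each. GCSF 0h libraries had 14.8, 10.6 and 1.86, IL3-OHT 168h libraries 1.19, 3.66 and 4.71, and GCSF-OHT 168h libraries 0.984, 2.61 and 8.56. All undifferentiated libraries lay above all others of these groups, and the remaining 3 groups overlapped. *Flt3* fell by 3.12 ± 0.60 on the log2 scale in IL3 by 168h (limma, adjusted p = 3.9e-06). The pre-treatment difference of -2.06 ± 0.60 (adjusted p = 0.0020) was called, with 2 reads in the GCSF 0h library of replicate 3. With replicate 3 left out of all groups, *Flt3* differed by -1.33 and was not called (adjusted p = 0.16). From GCSF 0h to GCSF-OHT 168h it differed by -0.98 ± 0.60 (adjusted p = 0.18), by -2.34 without replicate 3, which was called (adjusted p = 0.010), and by 0.025 without replicate 1 (adjusted p = 1.0).

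Like *Kit*, *Flt3* had its highest mean in IL3 in the first hours, 47.7 ± 10.5 at 3h (libraries at 52.3, 55.2 and 35.7), where 1 library overlapped the undifferentiated ones and the difference of 0.51 ± 0.60 was not called. It had 29.9 ± 5.07 at 4h, 16.6 ± 6.95 at 8h and 9.498 ± 1.54 at 12h, and was called lower at 20 of 25 time points, each one tested from 12h on. At the tested time points from 56h on the IL3 means were 0.351 to 4.75, near the floor of 3 reads, with 0, 0 and 1 read at 120h, so that fold changes there carry wide errors and depend on the added count of 1. In GCSF *Flt3* was 22.6 ± 2.14 at 2h, called higher than GCSF 0h (log2 1.55 ± 0.60, adjusted p = 0.045), stayed between 14.4 and 22.2 in the mean from 3h to 24h, and had means of 2.04 to 8.73 from 40h on, called lower at 112h, 120h and 128h. The mean of GCSF-OHT over 1h to 8h was 1.23 ± 0.47 above GCSF 0h (adjusted p = 0.041). With replicate 3 left out of all groups this difference was 0.52 and was not called (adjusted p = 0.69).

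The ligands of these receptors differed in their detection. *Kitl* was not over 3 reads in any library. *Flt3l* had normalized counts of 41.8 to 238, and rose in IL3 from a mean of 57.4 to 101.9 at 168h (log2 0.80 ± 0.16, adjusted p = 8.8e-06). The share of all tested genes called in either direction was 33.7% with the pre-treatment, 25.4% in IL3 by 168h and 24.8% with OHT in GCSF. Of the 6 tested genes among 7 other class III receptors and ligands, 2 fell and none rose with the pre-treatment, 1 rose and 3 fell in IL3 by 168h, and 3 rose and 2 fell with OHT in GCSF, with median log2 changes of -0.06, -1.09 and 0.42 beside -0.09, -0.03 and 0.00 for all genes tested. *Csf1r*, the receptor of the macrophage factor M-CSF, fell from 8.63 to 1.84 with the pre-treatment and rose to 16.4 at GCSF-OHT 168h (log2 2.66 ± 0.43, adjusted p = 4.0e-08). *Pdgfrb*, a receptor of platelet-derived growth factor, fell from 34.8 to 6.41 in IL3 and from 34.5 to 0.763 in GCSF. Of 22 genes of Kit and Flt3 signalling, all tested, 8 rose and 3 fell with the pre-treatment, 7 rose and 3 fell in IL3 and 7 rose and 1 fell with OHT in GCSF, with medians of 0.11, 0.30 and 0.44, beside calls on 33.7%, 25.4% and 24.8% of all genes. *Dok1*, an adaptor that restrains tyrosine kinase signalling, rose from 243 to 1213 with the pre-treatment (log2 2.32 ± 0.08) and to 666 at IL3-OHT 168h. The kinase *Fyn* fell from 280 to 104.3 with the pre-treatment, and the adaptor *Dok2* fell from 67.5 to 38.8 with OHT in GCSF. Of the PI3 kinase subunits, *Pik3cd* rose from 860 to 3770 with OHT in GCSF, and *Pik3r1* fell from 4713 to 2205 in IL3.

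*Cd44*, on chr2:102811141-102901665 (minus strand), was lower at GCSF 0h than in undifferentiated cells and rose with OHT in GCSF. Its undifferentiated libraries had normalized counts of 6045, 6211 and 6222 and its GCSF 0h libraries 3407, 3255 and 3373. At 168h IL3-OHT libraries had 4215, 4566 and 4274 and GCSF-OHT libraries 7824, 8043 and 7471. No 2 of these conditions overlapped, with GCSF-OHT 168h highest and GCSF 0h lowest. The log2 difference was -0.88 ± 0.05 with the pre-treatment (limma, adjusted p = 2.0e-32) and 1.22 ± 0.05 with OHT in GCSF (adjusted p = 2.6e-44). In IL3 the difference at 168h was -0.50 ± 0.05 (adjusted p = 5.3e-16), under the fold threshold. The rows are sums over the 9 annotated transcripts of *Cd44*, so its variant exons cannot be told apart.

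In IL3 *Cd44* had its highest mean already at 2h, 9204 ± 239 (libraries at 8975, 9184 and 9451, all above the undifferentiated ones), with a log2 difference from the start of 0.579, just under the threshold. It stood at 7723 ± 70.2 at 3h, 6209 ± 132 at 8h and 4652 ± 64.2 at 12h, the time of the second called step of *Kit*. Means of 3751 to 4922 followed from 16h on in the time points tested, with calls against the start at 112h, 128h and 136h, 3 of 25. In GCSF the mean was 4205 ± 67.03 at 2h and 3071 ± 57.9 at 4h, the lowest, and from there the means went through 4526 ± 181.4 at 32h and 5275 ± 223 at 88h to 7779 ± 289 at 168h. *Cd44* was called higher than GCSF 0h at 11 of 27 time points, which are all those from 88h on, and no single step between consecutive time points was called.

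At the excluded IL3 time points *Cd44* stood well above its neighbours. The 96h libraries had normalized counts of 5605, 5824 and 5904 against 3895 to 4637 in the 6 libraries of 88h and 104h, a ratio of means of 1.36. The 144h libraries had 5958, 5910 and 5213 against 3530 to 5050 at 136h and 152h, a ratio of 1.31. A smaller elevation was seen at 48h, where 4612, 5121 and 4826 stood above the 4293 to 4549 of 40h and 56h. Each of these times came 8 h after part of the medium was replaced with fresh OHT, at 40h, 88h and 136h. The part of the replacement in these values was not tested, and in GCSF none of the 3 time points stood above both neighbours for *Cd44*. Among the other members at those times in IL3, *Flt3* at 144h, with 7 to 10 reads and a normalized count of 7.61 to 11.04, was above its neighbours (0 to 3.63), and *Ly6a* at 96h, with 22.2 to 24.6, was under them (28.1 to 38.5). *Kit* and *Cd27* overlapped their neighbours at 96h and 144h in IL3. In GCSF *Ly6a* at 144h, with 44.7 to 56.2, was above its neighbours (26.3 to 41.1), and the other members overlapped theirs at 48h, 96h and 144h.

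**Figure D2:**
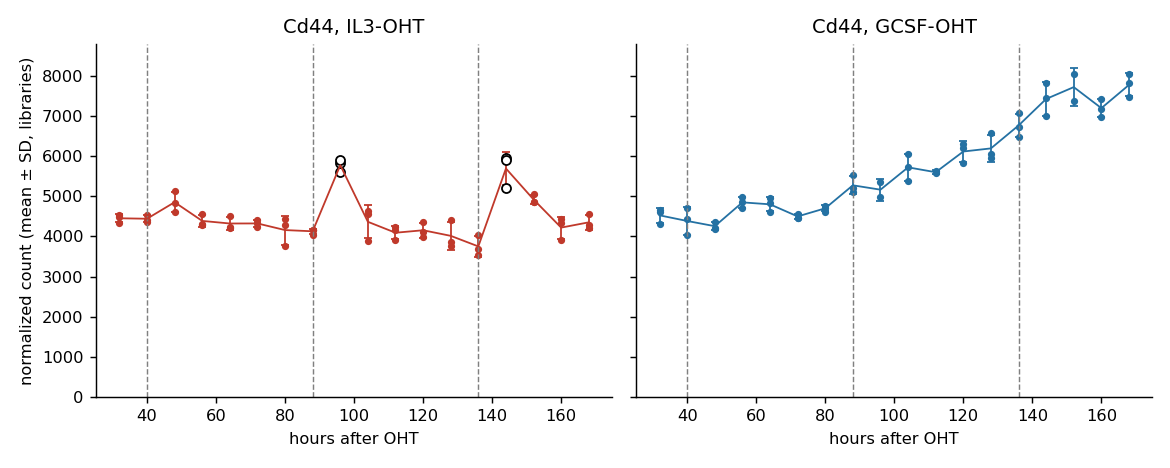
Normalized counts of *Cd44* from 32h to 168h after OHT in IL3 (left) and GCSF (right), with points for libraries, lines and bars for mean ± SD, dashed verticals at the medium replacements of 40h, 88h and 136h, and open circles for the excluded IL3 time points. The IL3 means of 5777 at 96h and 5694 at 144h stand above neighbours of 3751 to 4922. The GCSF means go from 4526 at 32h to 7779 at 168h, not steadily, with 4255 at 48h and 5166 at 96h.

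Genes around Cd44 function were mixed in direction. Of 17 ligands, cytoskeletal linkers and sheddases of Cd44, 15 were tested, and 1 rose and 7 fell with the pre-treatment, 2 rose and 2 fell in IL3, and 6 rose and 3 fell with OHT in GCSF, with median log2 changes of -0.54, -0.33 and 0.11, beside calls on 33.7%, 25.4% and 24.8% of all genes. *Spp1* (osteopontin), a Cd44 ligand, fell from 45001 to 13347 with OHT in GCSF. *Ezr* (ezrin), which links Cd44 to actin, fell from 8076 to 3982 in IL3. *Mmp9*, a protease that docks on Cd44, rose from 13.5 to 597 in IL3 (log2 5.37 ± 0.20) and from 8.51 to 3120 in GCSF (log2 8.38 ± 0.20). *Hmmr*, another hyaluronan receptor, rose from 476 to 1157 with the pre-treatment, and *Has1*, a hyaluronan synthase, fell from 10.96 to 2.11.

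*Cd34*, on chr1:194938819-194961279 (plus strand), was at or near the floor in all libraries. It had at least 1 read in 52 libraries and more than 3 in 3, with a highest count of 6 reads in 1 IL3-OHT 120h library whose other replicates had 0. The undifferentiated libraries had 2, 2 and 3 reads (normalized counts of 2.62, 2.05 and 3.55), GCSF 0h and IL3-OHT 168h libraries had 0, and GCSF-OHT 168h libraries had 0, 0 and 1. Although the limma test called *Cd34* lower than in undifferentiated cells at these conditions and at 20 of 25 IL3 time points, both sides are at or under the floor of 3 reads, so that no fold is given and *Cd34* is left out of the counts of members called. DESeq2 gave *Cd34* no adjusted p in 8 of 12 comparisons. Among 8 relatives and partners of Cd34, of which 7 were tested, 1 rose and 2 fell with the pre-treatment, 1 fell in IL3 and 3 rose and 1 fell with OHT in GCSF (medians -0.40, -0.53 and -0.10, with 33.7%, 25.4% and 24.8% of all genes called). *Spn* (Cd43), a leukocyte sialomucin, rose from 9826 to 18786 with the pre-treatment and fell to 8999 at GCSF-OHT 168h. *Selp* (P-selectin) fell from 463 to 151 with the pre-treatment and to 244 in IL3.

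*Ly6a*, on chr15:74994877-74998031 (minus strand), rose in the middle of both courses. Normalized counts were 31.4, 8.18 and 10.6 in undifferentiated cells, 27.7, 9.74 and 22.4 at GCSF 0h and, at 168h of IL3-OHT, 29.7, 18.3 and 11.3, and these 3 conditions overlapped. GCSF-OHT 168h libraries had 50.2, 37.8 and 75.3, above all of them. In IL3 the mean was 22.7 ± 3.83 at 8h, 37.3 ± 6.26 at 12h, 66.9 ± 15.3 at 32h, its highest (libraries at 76.97, 49.3 and 74.3), 39.1 ± 10.3 at 64h and 16.6 ± 7.39 at 128h. *Ly6a* was called higher than in undifferentiated cells at 15 of 25 time points, from 12h to 112h and at 160h, with a log2 rise of 2.14 ± 0.32 at 32h (limma, adjusted p = 7.3e-09), and at 168h the difference of 0.36 ± 0.32 was not called (adjusted p = 0.38).

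In GCSF the highest mean of *Ly6a* came at 72h, with a wide spread between libraries. The mean was 44.05 ± 10.2 at 8h, 31.8 ± 5.15 at 24h, 73.8 ± 21.3 at 48h, 140 ± 51.9 at 72h and 131.1 ± 40.4 at 80h, where libraries ranged from 100.7 to 176.98. At 72h the libraries had 117.9, 102.3 and 199, all above every IL3 library of the series. *Ly6a* then had 69.05 ± 27.4 at 104h, 36.8 ± 1.94 at 136h and 54.4 ± 19.1 at 168h. It was called higher than GCSF 0h at 21 of 27 time points, first at 8h (log2 1.197 ± 0.32, adjusted p = 0.0017), by 2.80 ± 0.32 at 72h (adjusted p = 8.3e-13) and by 1.46 ± 0.32 at 168h (adjusted p = 5.1e-05), a call lost when only these 2 groups were fitted (adjusted p = 0.056).

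Reads of *Ly6a* could be shared with its relatives. Of its 31-base words 31.9% occur in 9 other genes, with *Ly6c1* sharing the most (276), followed by *Ly6i* and *Ly6c2*, and *Ly6c2* had normalized counts of 9195 to 25198 over the libraries. The division of such reads by the authors' quantifier was not tested. *Ly6c2*, a monocyte surface antigen, fell in IL3 from 22042 to 14435 by 168h (log2 -0.61 ± 0.08). Of 15 other genes of the Ly6 group on chromosome 15, 7 were tested, none rose in the 3 comparisons against a start, and 2, 1 and 2 fell with the pre-treatment, in IL3 and with OHT in GCSF (medians -0.24, 0.07 and -0.44, with 33.7%, 25.4% and 24.8% of all genes called). *Ly6m* fell from 8.19 to 2.09 with the pre-treatment and *Lynx1*, which binds nicotinic receptors, from 13.1 to 4.83 with OHT in GCSF, both near the floor.

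*Cd27*, on chr6:125232622-125237010 (minus strand), dipped in the first hours and was higher late. Normalized counts were 45.8, 28.6 and 23.6 in undifferentiated cells and 25.9, 18.6 and 18.6 after the GCSF pre-treatment. By 168h the IL3-OHT libraries had 71.3, 61.3 and 49.01 and the GCSF-OHT libraries 38.4, 35.2 and 41.1. IL3-OHT 168h lay above the other 3 conditions, while undifferentiated cells overlapped both GCSF 0h and GCSF-OHT 168h. *Cd27* fell within 1 h of OHT in IL3, to 16.2 ± 4.96 (log2 -0.96 ± 0.32, limma, adjusted p = 0.021), and reached its lowest mean at 4h, 11.5 ± 1.09 (log2 -1.38 ± 0.32, adjusted p = 1.1e-04). It rose again between 4h and 8h, to 25.3 ± 4.16 (log2 1.06 ± 0.32, adjusted p = 0.0044). In GCSF the lowest mean was also at 4h, 11.3 ± 2.66 (log2 -0.84 ± 0.32 against GCSF 0h, adjusted p = 0.044), followed by a called step up to 21.0 ± 2.70 at 8h. Without replicate 2 only 1 step was called over the 5 members other than *Cd34*. At most 1 of the called steps of *Cd27*, to 1h and 8h in IL3 and to 8h in GCSF, was therefore kept there. Without replicate 1, whose undifferentiated library had 45.8, the mean over 1h to 8h was lower by a log2 difference of -0.67 and not called (adjusted p = 0.072), against -1.05 ± 0.25 with all libraries.

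Later, *Cd27* in IL3 went from 23.4 ± 8.47 at 56h to 38.4 ± 11.7 at 64h, 50.9 ± 7.97 at 88h and 60.5 ± 11.1 at 168h, the highest mean. It was called higher than the start at 136h and 168h (log2 0.91 ± 0.32 at 168h, adjusted p = 0.012), a call lost without replicate 2 (adjusted p = 0.095), without replicate 3 (0.059) and when only these 2 groups were fitted (0.052). In GCSF the means stayed at 14.1 to 27.9 from 12h to 136h, and 41.03 ± 1.89 at 144h and 38.2 ± 2.93 at 168h were called higher than GCSF 0h (log2 0.95 and 0.85, each ± 0.32), the latter not without replicate 2 (adjusted p = 0.095) or replicate 3 (0.12). *Cd70*, the ligand of Cd27, had 0 reads in all libraries, which allows a normalized count of up to 1.96 to 5.51 depending on the library. Of 11 genes of Cd27 signalling, 10 were tested, and 1 rose and 2 fell with the pre-treatment, 1 rose and 2 fell in IL3 and 2 rose and none fell with OHT in GCSF (medians -0.18, -0.13 and 0.40, with 33.7%, 25.4% and 24.8% of all genes called). *Birc3*, an inhibitor of apoptosis, rose from 149.3 to 339 in IL3 and from 199 to 798 with OHT in GCSF. *Traf3*, an adaptor that restrains non-canonical NF-kB signalling, rose from 808 to 2058 with the pre-treatment, and *Traf2* fell from 780 to 489 in IL3. *Traf5* fell from 7.22 to 1.83 with the pre-treatment, near the floor.

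**Figure D3:**
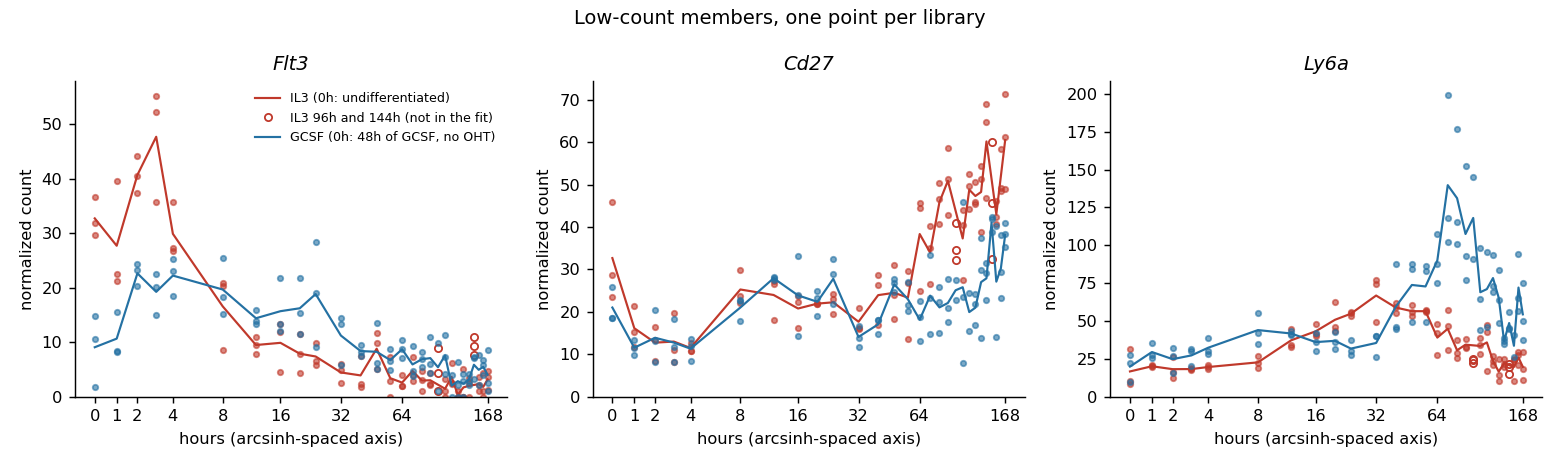
Normalized counts of *Flt3*, *Cd27* and *Ly6a* against hours of OHT on an arcsinh-spaced axis, with the same symbols as for *Kit* and *Cd44*. In IL3 the mean of *Flt3* is highest at 47.7 at 3h and under 10 from 12h on, with some libraries above 10. The mean of *Cd27* is lowest at 4h in both cytokines and ends at 60.5 in IL3 and 38.2 in GCSF. The mean of *Ly6a* peaks at 66.9 at 32h in IL3 and at 140 at 72h in GCSF.

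*Flt3* and *Cd44* were called lower at GCSF 0h than in undifferentiated cells and none higher, 2 of the 5 members other than *Cd34*, where 33.7% of 17414 genes were called in either direction, 13.0% higher and 20.7% lower, and the median log2 difference of the 5 was -0.57 beside -0.09 for all genes. The *Cd44* call held under each alternative run. *Ly6a* (0.35 ± 0.32) and *Cd27* (-0.57 ± 0.32) were not called.

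From the start to 168h in IL3, *Kit* and *Flt3* were called lower and *Cd27* higher, 3 of 5 where 25.4% of genes were called, 10.2% higher and 15.2% lower (median -0.50 beside -0.03). With OHT in GCSF, *Kit* was called lower and *Ly6a*, *Cd27* and *Cd44* higher, 4 of 5 where 24.8% of genes were called, 12.1% higher and 12.6% lower (median 0.85 beside 0.00). Against undifferentiated cells, GCSF-OHT 168h was called lower for *Kit* (-0.84 ± 0.06) and *Flt3* (-3.04 ± 0.60) and higher for *Ly6a* (1.82 ± 0.32), 3 of 5 with 39.1% of genes called. These comparisons share the undifferentiated or the GCSF 0h libraries in part. *Cd44* differed from the undifferentiated level by 0.34 ± 0.05 there, under the fold threshold.

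**Figure D4:**
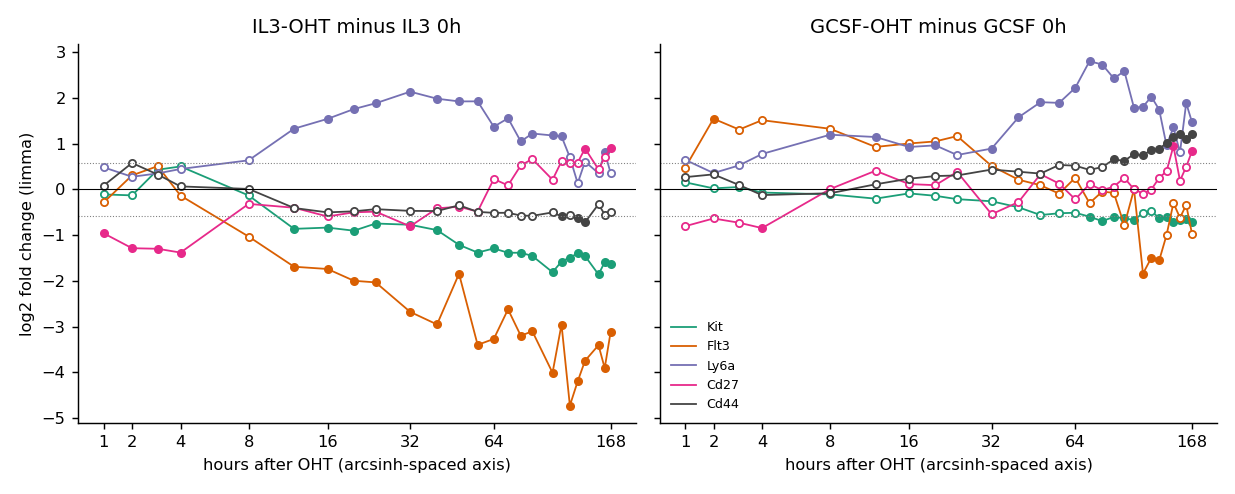
Log2 change of *Kit*, *Flt3*, *Ly6a*, *Cd27* and *Cd44* (limma on normalized count + 1) at each tested time point after OHT, against IL3 0h (left) and GCSF 0h (right), with filled points where the change was called and dotted lines at the fold threshold of 0.58. *Kit* and *Flt3* are called at each tested IL3 time point from 12h, and *Ly6a* is the member highest above its start in GCSF, by 2.80 at 72h.

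Averaged over windows of the course, the members called differed. Over 1h to 8h in IL3, 1 of 5 members was called, *Cd27* (-1.05 ± 0.25), where 12.4% of genes were. *Ly6a* had 0.44 there and was called without replicate 1, whose undifferentiated library was the highest (0.92, adjusted p = 0.012). Over the same hours in GCSF *Flt3* and *Ly6a* (0.70 ± 0.25, adjusted p = 0.029, but adjusted p = 0.78 without replicate 2) were called, where 4.09% of genes were. By edgeR neither was called (adjusted p = 0.071 for *Flt3* and 0.085 for *Ly6a*). The *Ly6a* call was also lost by DESeq2 (0.058) and that of *Flt3* with a pseudocount of 0.5 (0.086) and with no filter (0.067), while *Cd27* was called lower by DESeq2 (-0.62, adjusted p = 0.0498) and with a mean of at least 10 (-0.60, adjusted p = 0.045). Over 12h to 72h *Kit* (-1.03 ± 0.04), *Flt3* (-2.42 ± 0.45) and *Ly6a* (1.74 ± 0.24) were called in IL3, where 29.9% of genes were, and only *Ly6a* (1.51 ± 0.24) in GCSF, where 12.0% were. Over 80h to 168h in IL3 *Kit* (-1.56 ± 0.04) and *Flt3* (-3.63 ± 0.45) were called lower and *Ly6a* (0.76 ± 0.24) and *Cd27* (0.61 ± 0.24) higher, 4 of 5 where 31.2% of genes were called, the last 2 not without replicate 2 (adjusted p = 0.24 and 0.098) or replicate 3 (0.076 and 0.24). The *Ly6a* call was also lost by DESeq2 (0.65, adjusted p = 0.0503) and that of *Cd27* with a pseudocount of 5 (0.55, under the fold threshold). Over the same window in GCSF *Kit* (-0.63 ± 0.04) was lower and *Ly6a* (1.80 ± 0.24) and *Cd44* (0.90 ± 0.04) higher, where 23.4% of genes were called. *Flt3* was also called lower there by edgeR (-1.02, adjusted p = 0.030), by DESeq2 (-1.04, adjusted p = 0.012) and without replicate 3 (-1.49, adjusted p = 0.026). By the moderated F test over all time points, all 5 members other than *Cd34* changed at some time in IL3, where 69.7% of genes did, and all 5 in GCSF, where 47.7% of genes did.

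The change with OHT at 168h was itself compared between the cytokines. *Kit* fell less in GCSF than in IL3, with a difference of the 2 changes of 0.92 ± 0.08 on the log2 scale (limma, adjusted p = 4.9e-20). For *Cd44* the difference was 1.72 ± 0.07 (adjusted p = 1.0e-43). *Flt3* (2.14 ± 0.85, adjusted p = 0.032) and *Ly6a* (1.11 ± 0.46, adjusted p = 0.040) also passed, making 4 of 5 where 25.7% of genes were called. The *Ly6a* call was lost under each leave-one-out (adjusted p 0.067 to 0.25), with no filter (0.062) and by edgeR (0.059). That of *Flt3* was lost without replicate 3 (1.07, adjusted p = 0.49), with a pseudocount of 0.5 (0.075) and with no filter (0.053). For *Cd27* the difference was -0.06 ± 0.45 (adjusted p = 0.93).

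Time point by time point, GCSF-OHT and IL3-OHT libraries of the same hour showed 3 patterns. *Kit* was called lower in GCSF at 4h (log2 -0.71 ± 0.06, adjusted p = 8.1e-23), where IL3 had its peak, and higher in GCSF at 14 of 25 time points, among them each one tested from 56h on other than 80h, with 1.04 ± 0.06 at 152h. *Cd44* was called lower in GCSF at 1h to 8h, by up to a log2 difference of -1.13 ± 0.05 at 2h, differed by 0.02 ± 0.05 at 32h, and was called higher in GCSF at 128h, 136h, 152h, 160h and 168h (0.84 ± 0.05 at 168h). *Ly6a* was called higher in GCSF at 11 time points and lower at 32h, *Cd27* was called lower in GCSF at 10 time points from 64h to 160h and higher at none, *Flt3* was higher at 64h, 104h and 160h, and *Cd34* was called at no time point. The share of genes called ran from 11.3% to 34.1% over the 25 time points. Averaged over all 25, only *Ly6a* was called (0.71 ± 0.07, adjusted p = 5.5e-19), where 24.5% of genes were. *Kit* (0.49 ± 0.01), *Flt3* (0.51 ± 0.12) and *Cd27* (-0.47 ± 0.06) passed the p threshold but not that of the fold. *Flt3* was called by DESeq2 (0.63, adjusted p = 7.0e-06), by edgeR (0.62), with a pseudocount of 0.5 (0.61) and without replicate 2 (0.59), and *Cd27* without replicate 1 (-0.60). *Cd44* had 0.00 ± 0.01, with the early and late differences of opposite sign.

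**Figure D5:**
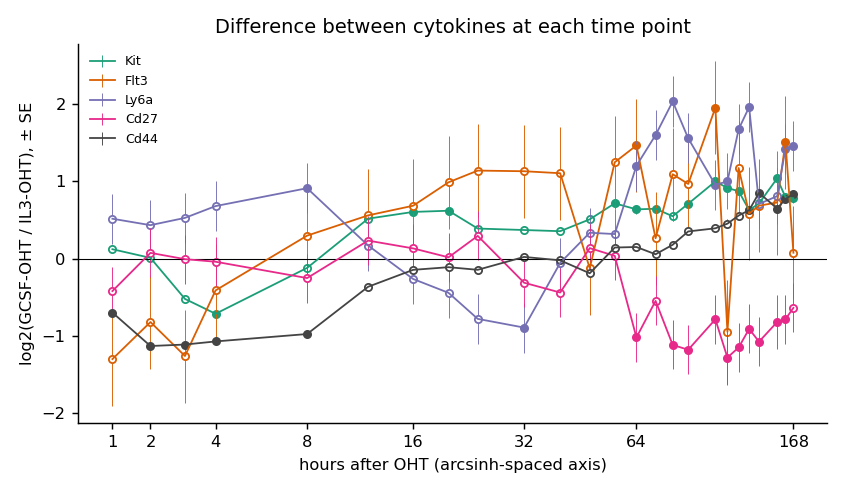
Log2 difference between GCSF-OHT and IL3-OHT libraries of the same hour (limma estimate ± SE on normalized count + 1, filled where called) for *Kit*, *Flt3*, *Ly6a*, *Cd27* and *Cd44* against hours after OHT on an arcsinh-spaced axis. *Cd44* passes from -1.13 at 2h to 0.84 at 168h, *Kit* from -0.71 at 4h to 0.78 at 168h, and *Cd27* lies below 0 from 64h on.

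Described over the 54 means of condition and time point in the fit, which share libraries and normalization, *Kit* and *Flt3* had a Pearson r of 0.86 on log2(mean normalized count + 1), and *Cd27* ran against them (-0.80 with *Kit* and -0.70 with *Flt3*). *Cd44* and *Ly6a* had coefficients between -0.24 and 0.21 with the members other than *Cd34*. The genes of all tested whose course was most like that of *Kit* were *Smg5*, *Rdh10* and *Nmi* (each 0.92), for *Flt3* *Rmdn2* (0.90), *Fam189b* and *Smg5* (0.89 each), for *Ly6a* *Lpcat1*, *Hmgn1* (0.85 each) and *Gpr84* (0.82), for *Cd27* *Nit1*, *Slc41a1* and *Vps39* (0.87 each) and for *Cd44* *Ivl*, *Tlr13* (0.85 each) and *Il18rap* (0.84). For *Cd34*, at the floor, the highest coefficient was 0.56 (*H2-T24*).

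Of 18 other stem and progenitor surface markers, 14 were tested, and 2 rose and 6 fell with the pre-treatment, 3 rose and 4 fell in IL3 and 3 rose and 2 fell with OHT in GCSF (medians -0.56, -0.24 and -0.04, with 33.7%, 25.4% and 24.8% of all genes called). *Il7r*, the receptor of lymphoid progenitors, fell from 61.4 to 2.98 with the pre-treatment, and *Itga4*, an integrin subunit, rose from 141.5 to 317. *Cd38* rose from 22.4 to 106.3 in IL3 and from 15.2 to 138.9 with OHT in GCSF, *Esam*, an adhesion molecule of stem cells, fell from 9.85 to 1.65 in IL3, and *Cd33* fell from 613 to 156 with OHT in GCSF.

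Markers of other cells that carry these proteins were measured beside them. Of 10 markers of mast cells, which keep Kit, and of basophils, 7 were not over 3 reads in any library, with *Fcer1a*, *Cpa3* and *Tpsb2* among them, and the sum of the list was 217 to 234 in undifferentiated cells, 518 to 638 at GCSF 0h, 51.5 to 242 in IL3-OHT and 395 to 952 in GCSF-OHT, made up of *Mcpt8*, a basophil protease, *Hdc* and *Ms4a2*. *Hdc*, histidine decarboxylase, rose from 37.7 to 328 with the pre-treatment, and *Mcpt8* fell from 185.8 to 51.2 in IL3 and from 239 to 113.5 with OHT in GCSF. The 9 T cell markers summed to 0.943 to 41.3 in OHT-treated IL3 cells and 4.61 to 37.97 in GCSF-OHT, with *Cd3e* and *Cd4* not over 3 reads in any library. The 6 B cell markers summed to 23.5 to 32.7 in undifferentiated cells and at most 43.9 elsewhere, and *Cd79b* fell from 14.1 to 0.295 with the pre-treatment.

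The 9 erythroid and megakaryocyte markers summed to 472 to 548 in undifferentiated cells, 149.1 to 204.2 at GCSF 0h, 140 to 543 in IL3-OHT and 114.2 to 257 in GCSF-OHT. Their largest member, *Itga2b* (Cd41), fell from 348 to 72.8 with the pre-treatment, and *Gp9*, near the floor, fell from 4.91 to 0.396 in IL3. Of the 5 tested markers of this list, 4 fell and none rose with the pre-treatment (33.7% of all genes called). In IL3 2 fell and none rose (25.4% of all genes called). *Klf1* went from 26.1 to 37.4 with the pre-treatment and to 39.9 at IL3-OHT 168h without a call. The 7 dendritic cell markers summed to 92.1 to 106.0 in undifferentiated cells, 14.8 to 21.4 at GCSF 0h and at most 294 after OHT. *Itgax* (Cd11c), the largest part of that sum, fell from 75.6 to 7.24 with the pre-treatment and rose from 75.6 to 180 in IL3 and from 7.24 to 82.05 with OHT in GCSF. Of the 6 tested markers of this list, 3 fell and none rose with the pre-treatment (33.7% of all genes called), and in IL3 *Itgax* was the only one called (25.4% of all genes called). *Xcr1* went from 8.48 to 4.53 and *Zbtb46* from 9.57 to 3.91 without a call. The 7 endothelial and stromal markers, of interest beside Cd34, summed to 57.9 to 92.9, 32.3 to 46.04, 17.4 to 151 and 5.12 to 88.5 in the 4 groups, *Col1a1* fell from 15.8 to 1.85 with the pre-treatment and rose to 9.07 with OHT in GCSF, and *Tie1* fell from 12.9 to 3.75 in IL3 and from 22.6 to 1.70 in GCSF. Of 8 genes of myeloid identity, all tested, 4 rose and 3 fell in IL3 and 5 rose and 2 fell with OHT in GCSF (medians 0.29 and 1.22, with 25.4% and 24.8% of all genes called). In IL3 the largest rise of the list was that of *Lyz2* (lysozyme), from 14173 to 804914, and the largest fall that of *Elane* (neutrophil elastase), from 108129 to 28723. The part of other cell types in the values of the members was not tested.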

How the data were processed

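RNA-seq libraries were quantified by the authors with Salmon against GRCm38 (mm10, per the submitters' processing notes) and deposited as normalized counts per gene symbol, which is a signal scaled by DESeq2 size factors. Each deposited value was a whole multiple of what 1 read is worth in its library (100% of nonzero values, within 1e-06 reads), so reads were recovered and used for depth, for the floor of 3 reads and for count tests. The floor covers counting error only.

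The values being normalized, the main test was limma 3.58.1 (R 4.3.3, trend, 1 mean per condition and time point) on log2(normalized count + 1), over the 17414 genes that reached a normalized count of 5 in any of the 159 libraries fitted. Fold changes on this scale understate those of low genes. A gene was called at a Benjamini-Hochberg adjusted p under 0.05 and a log2 difference over 0.58, with tests two-sided. The fit excluded IL3-OHT 96h and 144h, 6 libraries. The GCSF 0h titles name OHT, but their treatment labels place them before it, and the labels were followed. No 2 replicates agreed within sampling noise (chi-square per gene of at least 2.25 over 162 pairs).

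Alternatives were pseudocounts of 0.5 and 5, no filter, a mean of at least 10, upper-quartile scaling, each replicate left out, a replicate block, the excluded libraries added, only the groups compared, edgeR 4.0.16 and DESeq2 1.42.0 on recovered reads and, chosen after seeing the data, no 120h libraries. The fit was tested on simulated data. The members and lists were chosen with earlier results of these data known. Named genes were the 6 members, the 3 genes most like each, and per list the called gene with the largest rise and fall with the pre-treatment, in IL3 and with OHT in GCSF. Ligands, *Ptprc*, *Spi1*, *Ly6c1*, *Ly6i* and marker genes at the floor were named outside that rule, after their values were seen. Some genes that the rule names are not reported here. Positions are from GENCODE and upstream sequences from RefSeq (GRCm38.p6). Figures were drawn with matplotlib 3.10.9 in Python 3.11.15.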

Additional observations from a re-analysis of the deposited data

Results flagged for a closer look

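The change with OHT at 168h differed between the cytokines by the interaction term of the limma fit for *Kit* (0.92 on the log2 scale, the change in GCSF minus that in IL3), *Flt3* (2.14), *Ly6a* (1.11) and *Cd44* (1.72). The values of *Kit* and *Cd44* were called under each alternative run, whereas those of *Flt3* and *Ly6a* were not.

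In the IL3 time points left out of the comparisons, *Cd44* had a mean normalized count of 5777 at 96h and 5694 at 144h, and *Flt3* had 9.30 at 144h, each with all 3 libraries above every library of the neighbouring time points. The differences from the neighbours were not tested.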

How the results depend on the processing

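No value called in either setting changed sign under an alternative. Among differences not called, the sign changed for *Flt3* at GCSF-OHT 168h (0.025) without replicate 1, for *Cd27* in the interaction (0.00067) without replicate 2, for *Flt3* (-0.17) and *Cd27* (-0.048) over 12h to 72h in GCSF without replicate 3, for *Kit* over 1h to 8h in GCSF (-0.0025) with upper-quartile scaling, and for *Cd44* in the mean difference between cytokines (-0.00073 with upper-quartile scaling, -0.017 without replicate 1 and -0.019 without the 120h libraries). No call on *Kit* or *Cd44* changed in the comparisons of the pre-treatment, the endpoints, the windows, the courses and the cytokines. Steps between time points are not among these, and at least 1 called step of *Kit* was lost without replicate 2. The number of the 5 members other than *Cd34* called moved by over 1.5 times for the mean difference between cytokines from 1 to 2 (pseudocount 0.5, edgeR, DESeq2, and 1 to 2 over the replicates left out), for the interaction at 168h from 4 to 2 (no filter, and 2 to 3 over the replicates left out), for 1h to 8h in GCSF from 2 to 1 (pseudocount 0.5, no filter, and 1 to 2 over the replicates left out) and to 0 (edgeR), and over the replicates left out also for the pre-treatment (1 to 2, against 2 as reported) and for 80h to 168h in IL3 (2 to 4, against 4). Called steps between consecutive time points numbered 6, 1 to 5 over the replicates left out and 4 to 8 under the other alternatives. Smaller moves were to 2 at 168h in IL3 (from 3), to 3 with OHT in GCSF, in the interaction and over 80h to 168h in IL3 (from 4), to 3 over 1h to 8h in GCSF (from 2) and to 4 over 80h to 168h in GCSF (from 3). Calls between cytokines by time point numbered 50 and ran from 40 to 54, and those against the start moved by less than 1.5 times. The cause was not tested. With a replicate block 3 of these 5 members were still called at IL3-OHT 168h, the block changed none of the counts for the comparisons named first, and it moved called steps from 6 to 8. Same-numbered libraries correlated at -0.061 to 0.078 over 4 pairs of conditions, under the 0.1 asked of a pairing. Between IL3-OHT 168h and undifferentiated cells all 3 correlations were positive (0.056 to 0.078, against -0.034 for different numbers) and each of the 3 libraries matched best with its own number. Depth limits *Cd34* and late *Flt3*, which lie near 3 reads, and DESeq2 gave *Cd34* no adjusted p in 8 of 12 comparisons.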
